A study of Capra hircus with 6 samples.

Results

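The nuclear genes of oxidative phosphorylation were examined in the hypothalamus of pubertal and prepubertal goats. Members were all genes of the mRNA table whose NCBI goat symbol begins with NDUFA, NDUFB, NDUFC, NDUFS, NDUFV, SDH or ATP5, a choice by name. The rule gave 71 of the 20225 genes of the table, with 81 of its 30679 transcripts. They comprised 37 subunits of complex I, 4 subunits of complex II, 15 subunits of ATP synthase (complex V), NDUFA4 and its relative NDUFA4L2, which belong to complex IV, and 13 genes that share a prefix but encode no subunit. Those 13 were 7 assembly factors of complex I, 4 assembly factors of complex II, ATP5S and ATP5SL. The rule also covers complex III and the other subunits of complex IV, which were not analysed here, as were NDUFAF8 and the subunits encoded by mitochondrial DNA. Whole hypothalamus came from 3 pubertal female Anhuai goats of 4.5 to 5 months and 3 prepubertal female Anhuai goats of 2.5 to 3 months, housed alike, with 1 library of ribosomal RNA-depleted total RNA per goat. Pubertal goats were taken in the late follicular phase, so age, body size and phase of the ovarian cycle differ between the stages together with puberty and cannot be told apart.

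Oxidative phosphorylation makes most of the ATP of neurons, whose ion pumps and synapses use it continuously. Complex I takes electrons from NADH and complex II takes them from succinate, and they pass through ubiquinone, complex III and cytochrome c to oxygen at complex IV. The proton gradient that complexes I, III and IV build across the inner mitochondrial membrane drives ATP synthase, whose F1 head holds the catalytic sites and whose Fo part holds the proton-driven ring. Every complex other than complex II combines subunits encoded in the nucleus with subunits encoded in mitochondrial DNA.

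The values are FPKM, fragments per kilobase of transcript, scaled also to the mapped fragments of the library, as the authors computed them for each transcript and library. They were summed by gene here, and FPKM is scaled by length, so levels of different genes are set side by side below, with less certainty for the shortest transcripts, whose length is near that of a sequenced fragment. Read counts are not given with them, which leaves the depth of single values unknown and allows no counting interval. All 71 members were above 0 FPKM in all 6 libraries, and all 71 had the mean of at least 0.1 FPKM that a gene needed to be tested, a minimum that 16397 genes passed. The median log2(FPKM + 1) of those genes lay between 3.40 and 3.48 in the 6 libraries.

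Members were abundant. Of the 71, 46 had a mean of 100 FPKM or more over the 6 libraries, a level reached by 980 of the 16397 genes tested (5.98%). Only 10 had a mean under 20 FPKM, and 8 of these encode no subunit, the exceptions being NDUFS6 and NDUFA4L2. By the median over subunits ATP synthase was highest, between 302 FPKM in pubertal replicate 2 and 383 FPKM in prepubertal replicate 3 over its 15 subunits. The median over the 37 subunits of complex I lay between 135 and 173 FPKM, and that over the 4 subunits of complex II between 112 and 129.7 FPKM. The order of these medians, ATP synthase, complex I, complex II, held in all 6 libraries. The ratio of ATP synthase to complex I was between 2.01 and 2.45 and that of complex I to complex II between 1.16 and 1.49. By summed FPKM complex I, with more subunits, was above ATP synthase in each library (9991 to 19030 against 7937 to 10486 FPKM in pubertal goats). The median of the core subunits of complex I alone, given below, was under that of complex II in each library. Assembly factors, which help build the complexes but are not part of them, were far lower, with a median over 11 genes between 15.8 and 17.0 FPKM. Subunits of a complex share their libraries and are not replicates, so these medians are given as a description.

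**Figure D1:**
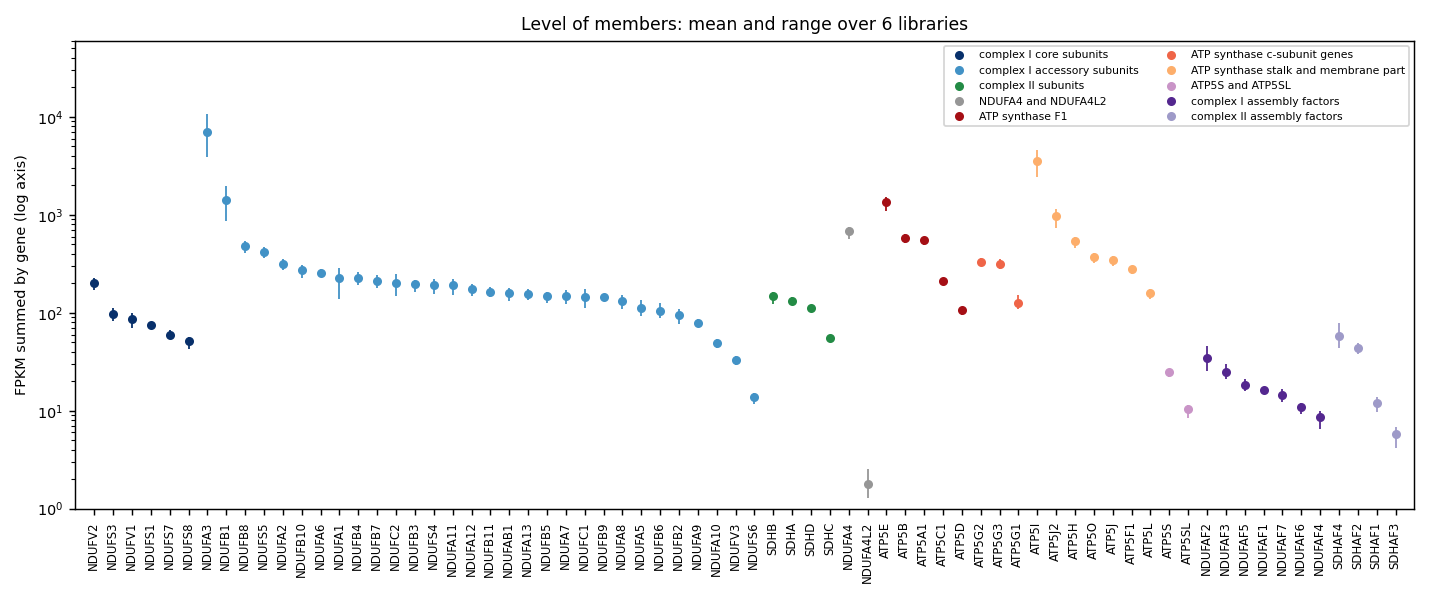
FPKM summed by gene on a log axis for 70 of the 71 members, with the mean over 6 libraries as a point and the lowest and highest library as a line, grouped by complex and role. NDUFA3 (mean 6986) and ATP5I (mean 3533) stand above the other subunits, and the assembly factors lie at or below 58.5 FPKM.

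Within complex I, the 7 core subunits that carry the flavin and the iron-sulfur clusters or the quinone site were lower than the 30 accessory subunits. The median of the core subunits was between 74.2 and 98.0 FPKM and that of the accessory subunits between 148 and 190.1 FPKM, a ratio of accessory to core between 1.52 and 2.39 over the libraries. At 100 FPKM or more were 2 of 7 core and 25 of 30 accessory subunits. Transcript length was not held equal in this comparison. The accessory subunits above 1000 nt, NDUFA5, NDUFA9, NDUFA10, NDUFB2 and NDUFB5, had means from 49.2 to 149 FPKM. Core subunits under 1000 nt, NDUFS3, NDUFS8, NDUFV1 and NDUFV2, had means from 51.2 to 204 FPKM. The part of length in the gap was not tested. NDUFV2, an iron-sulfur protein of the NADH-oxidising part, was the highest core subunit with a mean of 204 FPKM. NDUFV1, which binds NADH and flavin, had a mean of 85.6 FPKM, and NDUFS1, which holds several iron-sulfur clusters, had 75.2 FPKM. Of the accessory subunits, NDUFA3 had 10789, 3868 and 5615 FPKM in pubertal replicates 1, 2 and 3 and 7503, 5254 and 8887 FPKM in prepubertal replicates 1, 2 and 3. It ranked 6 among the 20225 genes, with an annotated transcript of only 191 nt, and its level varied more among goats than that of any other member, with a coefficient of variation of 36.7% over the 6 libraries. NDUFB1, a small membrane subunit, had 1988, 858 and 1032 FPKM in the pubertal and 1579, 1421 and 1636 FPKM in the prepubertal replicates. NDUFB8, a subunit often used as a marker of assembled complex I, had 522, 409 and 441 FPKM in the pubertal and 530.4, 417 and 535 FPKM in the prepubertal replicates. For all 3 genes pubertal replicate 2 was the lowest library, and the stages overlapped. NDUFS6, an accessory subunit of the NADH-oxidising part, was the lowest subunit of complex I at 14.5, 15.3 and 11.6 FPKM in the pubertal and 13.7, 13.5 and 13.2 FPKM in the prepubertal replicates, followed by NDUFV3 with a mean of 32.8 FPKM. It was singled out after its values were seen.

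The 4 genes of complex II had means between 54.7 FPKM for SDHC and 147 FPKM for SDHB. SDHA, the flavoprotein that oxidises succinate, had 124, 146 and 122 FPKM in the pubertal and 139, 121 and 140.1 FPKM in the prepubertal replicates. SDHB, its iron-sulfur partner, had 144, 149 and 124 FPKM against 158, 144 and 163 FPKM. The ratio of SDHB to SDHA lay between 1.02 and 1.19. The membrane anchors SDHC and SDHD differed from each other by more, with a ratio of SDHD to SDHC between 1.88 and 2.26. SDHC had the smallest spread of all members, with 53.5, 54.4 and 54.7 FPKM in the pubertal and 56.3, 53.2 and 56.1 FPKM in the prepubertal replicates, a coefficient of variation of 2.34%. SDHD had 101, 110.0 and 103 FPKM in the pubertal and 119, 120.3 and 119 FPKM in the prepubertal replicates, so its stages did not overlap. The ratio of SDHD to SDHC averaged 1.93 ± 0.0807 over the pubertal and 2.17 ± 0.0832 over the prepubertal goats (SD, n = 3 each, exact two-sided permutation test, p = 0.1, the smallest that 3 against 3 libraries allow). It was 1 of 11 ratios and shares tested in this way, and its Benjamini-Hochberg adjusted p over them was 0.733.

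All 15 subunits of ATP synthase had a mean of 100 FPKM or more. In the F1 head, the alpha subunit ATP5A1 and the catalytic beta subunit ATP5B were nearly level, with a ratio of ATP5A1 to ATP5B between 0.886 and 1.03. In the assembled enzyme both are present in more copies than the central stalk subunits gamma and delta, and both mRNAs were above that of gamma, ATP5C1, with a ratio between 2.48 and 2.68 for ATP5A1 and between 2.60 and 2.97 for ATP5B. ATP5D, the delta subunit, had 0.444 to 0.572 of the FPKM of ATP5C1, whereas ATP5E, the epsilon subunit, with a transcript of only 385 nt, had 5.42 to 7.05 times its FPKM. ATP5I and ATP5J2, the small membrane subunits e and f, had means of 3533 and 964 FPKM. The ring that turns with the proton flow is made of subunit c, for which 3 genes encode the same mature protein behind different import sequences. ATP5G2 gave 42.9% ± 1.95 of the summed FPKM of these genes (SD, n = 6), ATP5G3 gave 40.7% ± 1.43 (SD, n = 6) and ATP5G1 gave 16.4% ± 1.19 (SD, n = 6). Split by stage, ATP5G1 gave 16.6% ± 1.43 in pubertal goats and 16.1% ± 1.18 in prepubertal goats (SD, n = 3 each, exact two-sided permutation test, p = 0.7). The shares of ATP5G2 (exact permutation p = 0.9) and ATP5G3 (exact permutation p = 0.6) also differed between the stages by less than the spread between goats. ATP5G2 was annotated with 2 transcripts of 647 and 679 nt, and with only its more abundant transcript its share was 35.2%, behind ATP5G3 with 47.2%.

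**Figure D2:**
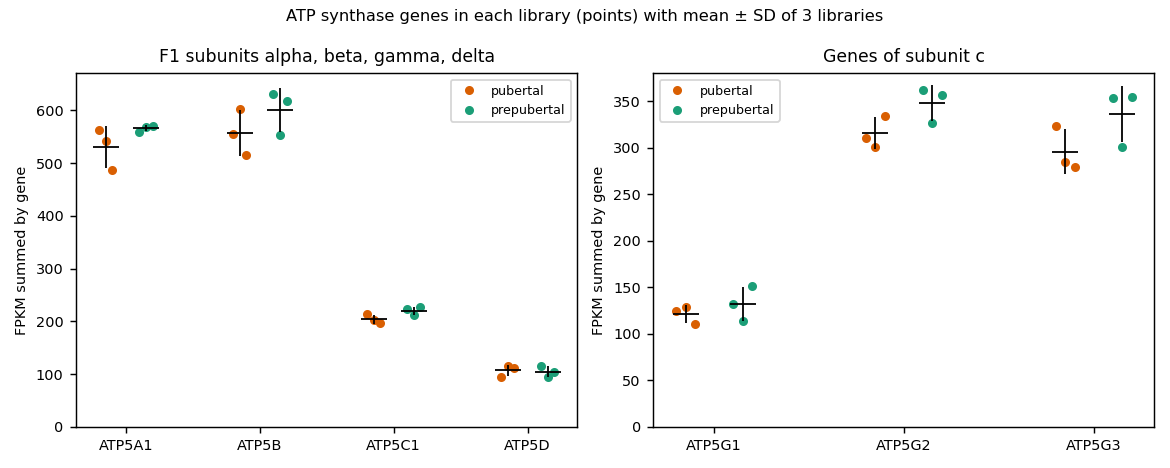
FPKM of the F1 subunits ATP5A1, ATP5B, ATP5C1 and ATP5D (left) and of the genes of subunit c (right) in each of 3 pubertal and 3 prepubertal libraries, with mean and SD. The F1 subunit ATP5E, with a higher mean of 1368 FPKM, is not drawn. ATP5A1 and ATP5B share a level, ATP5C1 and ATP5D lie below, and ATP5G1 lies below ATP5G2 and ATP5G3 in both stages.

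NDUFA4, first placed in complex I and now counted as a subunit of complex IV, had 747, 592 and 565 FPKM in the pubertal and 752, 671 and 748 FPKM in the prepubertal replicates. NDUFA4L2, a relative known from hypoxic cells, was the lowest of all members at 1.68, 1.66 and 2.53 FPKM in the pubertal and 1.28, 1.51 and 1.99 FPKM in the prepubertal replicates. It made 0.170% to 0.445% of the FPKM of this pair, and the share did not differ between the stages beyond the spread (exact permutation p = 0.2). Among the assembly factors, SDHAF4 with a mean of 58.5 FPKM and SDHAF2, which attaches flavin to SDHA, with 43.5 FPKM were the highest. NDUFAF4 and SDHAF3 were the lowest, with means of 8.71 and 5.82 FPKM.

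The pubertal and prepubertal libraries were then compared gene by gene with limma on log2(FPKM + 1), over all 16397 genes. No gene of the table had an adjusted p-value under 0.05 (0 of 16397, 0%), and therefore no member. At an unadjusted p-value under 0.05, 575 genes were higher (3.51%) and 271 lower (1.65%) in pubertal goats. With each library centred on its median this split was 454 and 407, and after quantile normalization 462 and 377. Of the 71 members 0 were higher and 2 were lower at this unadjusted level, a share of 2.82% against 1.65% of all genes. The 2 were SDHD and NDUFB10. The members nevertheless leaned to one side. The mean of 63 of 71 members (88.7%) was lower in pubertal goats, against 50.2% of the genes tested, and the median log2 difference was -0.14 over the members and 0.00 over all genes (-0.0007). The lean held with centring of the libraries (67 of 71 lower) and with quantile normalization (58 of 71), with no share of all genes set beside either count. Centring by itself moved every gene down by 0.037 (log2) in pubertal relative to prepubertal goats. The differences of the members were small. The ratio of the pubertal to the prepubertal mean FPKM had a median of 0.915 over the members and ran from 0.701 to 1.23. Members share libraries and vary together, so their number adds no replicates to the 3 goats of each stage. Lower expression per cell and fewer cells that express these genes cannot be told apart in whole tissue.

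**Figure D3:**
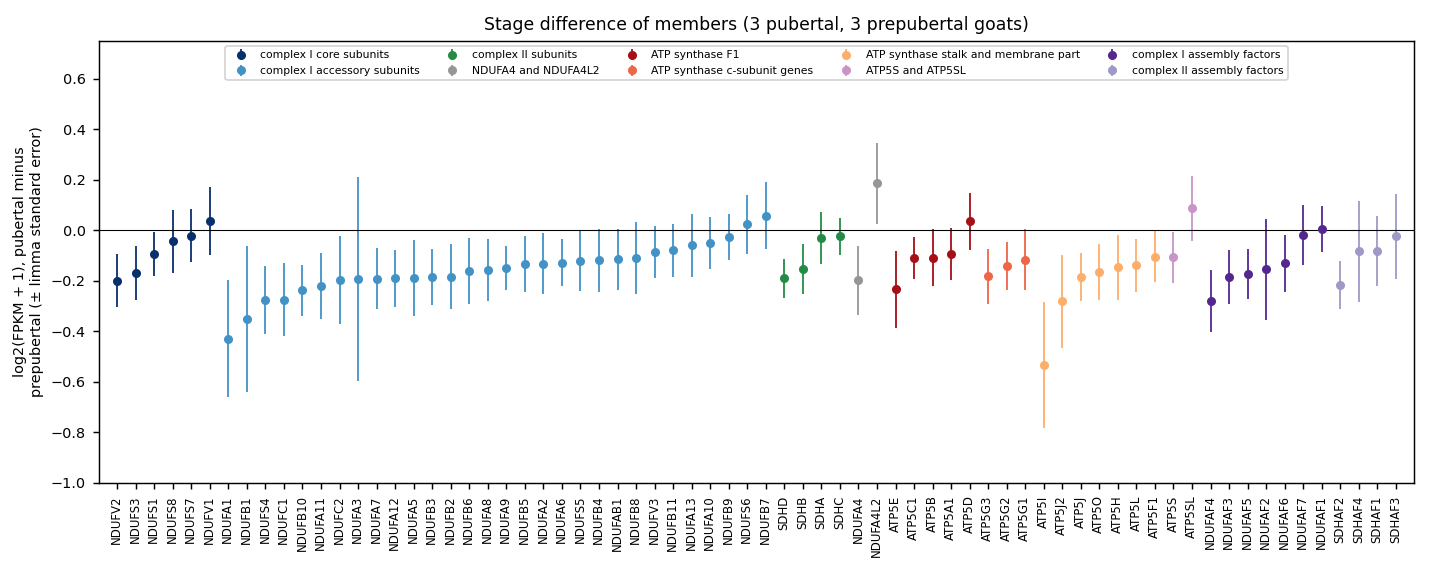
Difference in log2(FPKM + 1), pubertal minus prepubertal, for 70 of the 71 members, with the limma standard error as a bar (3 pubertal and 3 prepubertal goats). Of the 70 points 63 lie below 0, from -0.53 for ATP5I to 0.19 for NDUFA4L2, and no member passed an adjusted p-value of 0.05.

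By role, the lean was present in most groups. Of the 30 accessory subunits of complex I, 28 had a lower mean in pubertal goats and the median log2 difference was -0.15. NDUFB10 had 279, 254 and 228 FPKM in the pubertal and 304, 295 and 295 FPKM in the prepubertal replicates, with no overlap, a log2 difference of -0.24 (standard error 0.10, unadjusted p = 0.0450, adjusted p = 0.958 from limma). The largest difference within complex I was that of NDUFA1, a membrane subunit, with 286, 139 and 173 FPKM against 271, 254 and 244 FPKM, a log2 difference of -0.43 (standard error 0.23). Its pubertal replicate 1 was the highest of all 6 libraries and its pubertal replicates 2 and 3 the lowest. NDUFS4, an accessory subunit whose loss in mice gives a model of Leigh syndrome, had 215, 155 and 159 FPKM against 219, 199 and 216 FPKM, a log2 difference of -0.28 (standard error 0.14). Of the 7 core subunits, 5 had a lower mean, with a median of -0.045 and the largest difference, -0.20, in NDUFV2. Without pubertal replicate 1 the median of the core subunits was 0.0033, while that of the accessory subunits was -0.25.

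All 4 subunits of complex II had a lower pubertal mean, with a median of -0.09. That median was -0.026 after quantile normalization, where SDHA and SDHC had a higher mean, and it was -0.16 without pubertal replicate 2 and -0.053 without pubertal replicate 3. SDHD differed by -0.19 (standard error 0.08, unadjusted p = 0.0390, adjusted p = 0.945 from limma), while SDHA differed by -0.03 and SDHC by -0.02, both within the spread between goats. Of the 15 subunits of ATP synthase, 14 had a lower mean, with a median of -0.14, and the exception was ATP5D at 0.035. ATP5I, subunit e, showed the largest difference of all members. It had 3874, 2427 and 2434 FPKM in the pubertal and 4568, 3364 and 4533 FPKM in the prepubertal replicates, a log2 difference of -0.53 (standard error 0.25, adjusted p = 0.962 from limma). Here pubertal replicate 1 lay above prepubertal replicate 2, so the stages overlapped. ATP5E had 1496, 1099 and 1193 FPKM against 1419, 1492 and 1512 FPKM, and ATP5J2 had 1132, 739 and 763 FPKM against 1071, 940 and 1141 FPKM, with log2 differences of -0.235 and -0.28.

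For 7 members the values of the stages were fully apart, all of them lower in pubertal goats (9.86%, against 3.84% of all genes lower and 5.91% higher). Besides SDHD and NDUFB10 these were ATP5J, a stalk subunit, and the assembly factors NDUFAF3, NDUFAF4, NDUFAF5 and SDHAF2. Of the 58 members that are subunits only 3 were thus fully apart and lower, against the same 3.84% of all genes. With only the most abundant transcript of each gene, 5 members were fully apart and lower, and ATP5J and NDUFAF5 overlapped. No share of all genes is set beside that count. ATP5J had 337, 302 and 326 FPKM in the pubertal and 366, 348 and 383 FPKM in the prepubertal replicates. SDHAF2 had 37.9, 44.8 and 37.9 FPKM against 46.1, 45.2 and 49.2 FPKM, a log2 difference of -0.22 (standard error 0.10, unadjusted p = 0.0506). NDUFAF4 had 8.62, 8.29 and 6.47 FPKM against 9.52 and 9.37 FPKM in prepubertal replicates 1 and 3 and a higher value in prepubertal replicate 2, a log2 difference of -0.28 (standard error 0.12, unadjusted p = 0.0520). The gap of NDUFAF3 was smaller than the rounding, with 24.8 FPKM in pubertal replicate 2 and in prepubertal replicate 2. The 8 members with a higher pubertal mean included NDUFB7, NDUFS6, NDUFV1, NDUFA4L2, ATP5D, ATP5SL and NDUFAF1, with log2 differences from 0.00 to 0.19 that were within the spread between goats.

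Over all members, the lowest values were mostly those of 2 of the 3 pubertal goats. The lowest of the 6 libraries was pubertal replicate 3 for 33 members and pubertal replicate 2 for 26 members, whereas these libraries were the lowest for 21.7% and 19.3% of all genes tested. Pubertal replicate 1 was the lowest for 3 members and the highest for 19, against 18% and 22.9% of all genes, and it lay above both other pubertal replicates for 44 members. The median deviation of a member from its own median over the libraries was 0.04, -0.12 and -0.20 on the log2 scale in pubertal replicates 1, 2 and 3, and 0.09, -0.03 and 0.06 in prepubertal replicates 1, 2 and 3. The core subunits of complex I and the subunits of complex II differed from this order, with medians of -0.034 and -0.052 in pubertal replicate 1, 0.05 and 0.0093 in pubertal replicate 2 and -0.14 and -0.13 in pubertal replicate 3. The counts therefore depended on which goat was left out. Without pubertal replicate 1, 32 members were lower at an unadjusted p-value under 0.05 (45.1%, against 7.55% of the genes then tested) and 0 were higher (against 5.99%). Then 41 members (57.7%, against 18.2% of genes) were lower with no overlap and 0 were higher (against 14.7%). The smallest adjusted p of a member was then 0.236, in NDUFA1. The count of 2 members fell to 1 without prepubertal replicate 1 and to 0 without pubertal replicate 3 or without prepubertal replicate 3. Without prepubertal replicate 2 the members with no overlap and lower values numbered 28, and no share of all genes is set beside that count. Stages overlap less often when a library is left out. Of all genes, 3.84% were lower without overlap over 6 libraries, against 18.2% without pubertal replicate 1. Leaving out a goat because its values differ uses the outcome itself, and these counts describe how the libraries lie rather than test the stages.

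**Figure D4:**
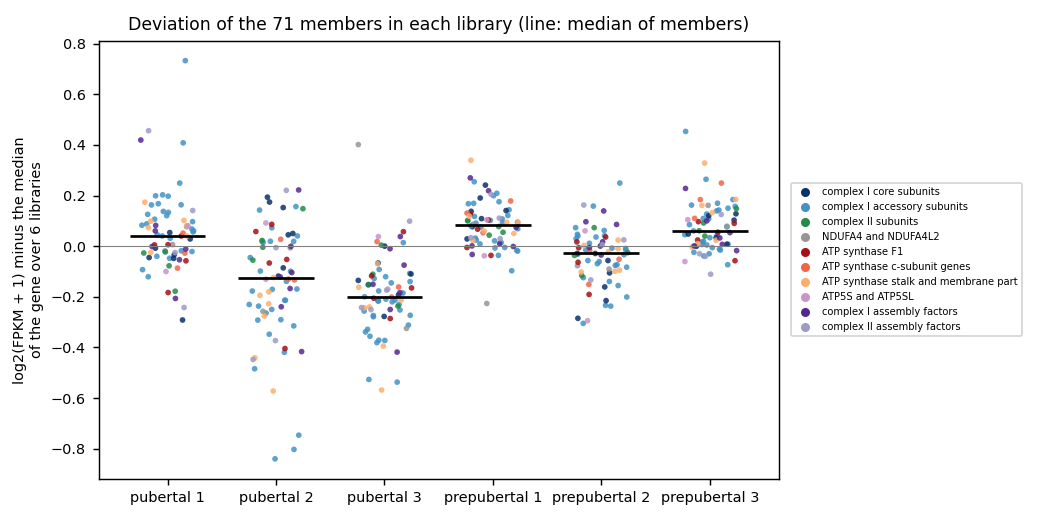
Each point is a member, plotted for each library as its log2(FPKM + 1) minus its median over the 6 libraries, colored by complex and role, with a line at the median of the 71 members. The line lies at -0.12 and -0.20 in pubertal replicates 2 and 3 and between -0.03 and 0.09 in the other libraries.

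Markers of the cell types of the tissue were set beside the members, and no marker had an adjusted p-value under 0.05 in limma. All 9 neuron markers tested (of 10 listed, such as SYT1, SNAP25 and NEFL) had a lower pubertal mean, with a median log2 difference of -0.15 and 0 of them under an unadjusted p-value of 0.05, and their summed FPKM was between 1496 and 1886 in pubertal and between 1699.6 and 1899 in prepubertal goats. The lowest sums were in pubertal replicate 3 (1496) and pubertal replicate 2 (1631), the same libraries in which most members were lowest. Of 7 oligodendrocyte markers 1 had a lower mean, and their sum ran from 1692 to 4933 FPKM in pubertal and from 1304 to 2548 FPKM in prepubertal goats. Much of that range was MBP, the main myelin protein, listed at 0 in prepubertal replicate 1 and at 3333 FPKM in pubertal replicate 1. All 7 endothelial and mural markers tested had a higher mean, and 2 of them, RGS5 and MYH11, were higher at an unadjusted p-value under 0.05. The sums over all 7 were 129, 115 and 237.6 FPKM in pubertal replicates 1, 2 and 3. In prepubertal goats they were 86.5 to 108 FPKM. Astrocyte markers summed to 4477 to 4823 FPKM against 4529 to 4722 FPKM and microglia markers to 321 to 402 FPKM against 312 to 362 FPKM, with 3 of 8 lower in each list and ALDH1L1, C1QA and C1QB higher at an unadjusted p-value under 0.05, as was TSHB among the pituitary markers. Choroid plexus markers reached 329 FPKM in pubertal replicate 3 and 57.8 FPKM or less elsewhere, and anterior pituitary markers 14.6 FPKM in pubertal replicate 3 and 3.53 FPKM or less elsewhere. Sums were at most 18.5 FPKM over the 4 muscle markers tested (of 7 listed). Of 6 erythroid markers listed only 1, HBM, was tested, with 0.622 FPKM or less. HBA, HBA1 and HBB were not found by symbol, so the main globins were not measured here. The part of any of these cell types in the lower values of the members was not tested.

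Members have short mRNAs, and length went together with both spread and difference. Their most abundant transcripts had a median of 793 nt, from 191 nt in NDUFA3 to 4684 nt in NDUFS1, against a median of 2189 nt over all genes tested. Over the 71 members, Spearman's rho of transcript length was -0.55 with the mean FPKM, -0.49 with the coefficient of variation and 0.42 with the log2 difference between the stages. Genes share the 6 libraries, so these are descriptions without a test. The 13 members under 500 nt had a median coefficient of variation of 16.6% and a median log2 difference of -0.235, while the 58 members of 500 nt or more had 10.2% and -0.125. NDUFA3, NDUFB1 and ATP5I, with annotated transcripts of 191, 262 and 273 nt, were the 3 shortest and the 3 most abundant members. Of all 2614 genes under 1000 nt, 56.1% had a lower pubertal mean with a median log2 difference of -0.03, against 91.3% and -0.16 for the 46 members under 1000 nt. Of the 25 members of 1000 nt or more, 84.0% had a lower mean, with a median of -0.10, against 49.1% and 0.00 (0.0025) of all genes of that length. Transcripts near or below the length of a sequenced fragment are the hardest for FPKM to scale, and the part of length in these values was not tested.

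**Figure D5:**
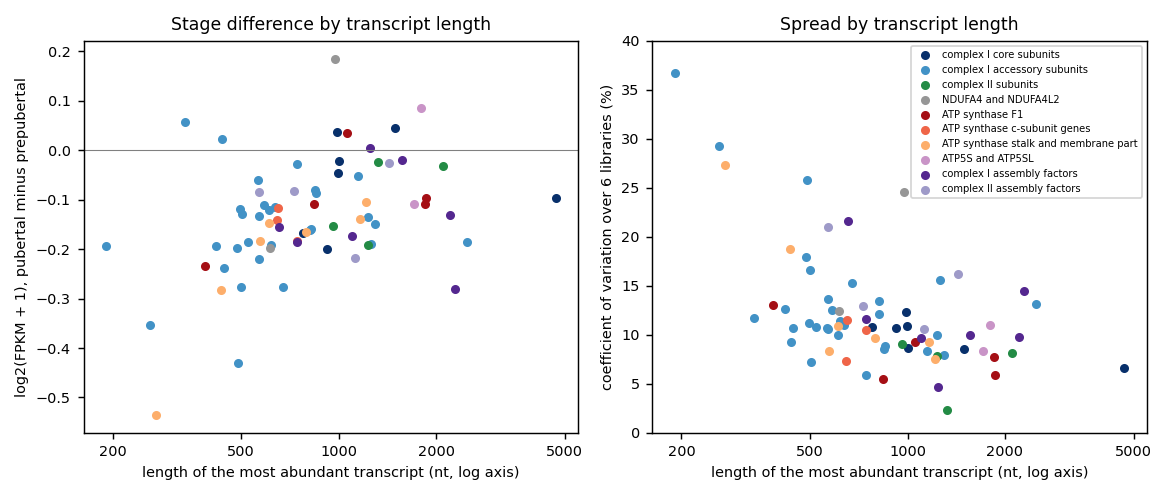
Log2 difference pubertal minus prepubertal (left) and coefficient of variation over 6 libraries in percent (right) against the length of the most abundant transcript on a log axis, a point per member. The widest spread (36.7%, NDUFA3) and the largest difference (-0.53, ATP5I) are found below 300 nt, and most members above 1000 nt still lie below 0.

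Other genes of energy metabolism were set beside the members. Of 14 tricarboxylic acid cycle genes 12 had a lower pubertal mean, with a median log2 difference of -0.07. Of 14 tested glycolysis genes 12 did, with a median of -0.10. The libraries lay otherwise than for the members, whose median deviations in pubertal replicates 1, 2 and 3 were 0.04, -0.12 and -0.20. They were -0.054, 0.070 and -0.13 for the glycolysis genes and -0.047, -0.013 and -0.029 for the tricarboxylic acid cycle genes. Of 13 tested assembly factors outside the prefixes, 11 had a lower mean, with a median of -0.06. Regulators of nuclear subunit genes, such as PPARGC1A, NRF1, GABPA and TFAM, were evenly split in direction, with 7 of 14 lower and a median of 0.00 (-0.0011). Their log2 differences ran from -0.23 for ESRRG to 0.08 for GABPA, and TFAM differed by -0.16. PPARGC1A, a coactivator of mitochondrial biogenesis, had a mean of 7.24 FPKM and a log2 difference of 0.02 (standard error 0.12), and NRF1, a factor that binds many subunit promoters, a mean of 15.4 FPKM and a difference of -0.05 (standard error 0.09). In these 4 lists 0 genes had an unadjusted p-value under 0.05 in either direction. ATPIF1, the inhibitor that binds the F1 head when the proton gradient fails, had a mean of 1826 FPKM and a log2 difference of -0.20 (standard error 0.42).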

How the data were processed

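Hypothalamus RNA of 6 goats was sequenced as stranded paired-end libraries. Reads were aligned with TopHat and assembled with Cufflinks 2.1.1 and Scripture, and the authors deposited FPKM for each transcript in each library. The genome build is not given in the sources used here. From the deposited comparison by Cuffdiff 2.1.1 only gene identifiers and transcript lengths were taken, and its fold changes, p-values and group means were not used. Of the columns of the mRNA table with values of single samples, 0 were left unused. RefSeq symbols (goat assembly ARS1.2, used for names only) were found for 19083 of 20225 genes (94.4%). No sequence of a member was printed. Results that need a withheld item are not reported here, though counts over members or markers include it.

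FPKM was summed by gene. Reads that a member shares with a near-identical copy cannot be told apart, so levels of small subunits with such copies are uncertain. Genes with a mean of at least 0.1 FPKM were tested with limma 3.58.1 in R 4.3.3 (two-sided moderated test, prior variance with a trend) on log2(FPKM + 1), with Benjamini-Hochberg adjustment over all genes and a threshold of 0.05. Fold changes on this scale understate those of low genes. Sums, ratios and exact permutation tests were made in Python 3.11.15 (scipy 1.17.1, pandas 2.3.3, numpy 2.4.6) and plots with matplotlib 3.10.9. limma was tested on simulated data. The libraries are 1 per goat, so p-values measure the spread between goats.

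Named members were the 3 highest of each complex, the 3 lowest of all, up to 5 per direction with the smallest unadjusted p under 0.05, every member past an adjusted p of 0.05 (0), the isoform families of NDUFA4 and subunit c, and the ATP synthase inhibitor, while other genes were to be named at an unadjusted p under 0.05. The remaining families of the rule were not analysed here. Other members given with values, PPARGC1A, NRF1 and the remaining markers and regulators were named after values were seen. Members and lists were chosen with earlier results of these data known. Alternatives were a pseudocount of 0.1, a minimum mean of 1 FPKM or none, libraries quantile normalized or centred on their medians, no trend, a mean of logs in place of the median over subunits, the most abundant transcript of each gene, the replicate number as a block, each library left out, and, chosen after seeing the data, members of at least 500 nt.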

Additional observations from a re-analysis of the deposited data

How the results depend on the processing

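The lower pubertal mean of most members held under all alternatives run, with counts from 58 to 69 of 71 over the libraries left out in turn. No share of all genes with a lower mean is set beside the counts under alternatives. The number of members lower at an unadjusted p under 0.05 was 4 with centring, 1 (of 58) among members of at least 500 nt, and 0 to 32 with a library left out. Members fully apart and lower numbered 4 after quantile normalization, 5 with the most abundant transcript, 11 with centring and 7 to 41 with a library left out. Those higher numbered 0 to 2. Except without pubertal replicate 1, no share of all genes is set beside these counts. Stages overlap less often for any gene when a library is left out, and centring moves every gene down in pubertal goats. Over all genes, 407 were lower with centring, and with a library left out 338 to 984 were higher, 164 to 1239 lower and 0 to 4 past an adjusted p of 0.05. The median difference was -0.083 over the members, -0.063 for ATP synthase and -0.026 for complex II after quantile normalization, and -0.085 over the members without pubertal replicate 3. Its median level was 316 FPKM with the most abundant transcripts and 406 FPKM as a mean of logs, which gave 104 FPKM for complex II. The shift of library medians was 0.04 (log2), pubertal minus prepubertal.

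With the replicate number as a block, 1 gene of the table passed an adjusted p of 0.05 and the members kept counts of 2 and 63. Deviations of same-numbered libraries had correlations of -0.02, -0.10 and 0.08, within the -0.12 to 0.16 of libraries with different numbers. These values cannot show whether same-numbered goats shared a batch, and the labels give only a number.

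Of 546 log2 differences of 39 members under 14 alternatives, 513 kept their sign. Signs turned with centring for ATP5D (-0.0017), NDUFAF1 (-0.033), NDUFS6 (-0.014) and NDUFV1 (-0.0002), after quantile normalization for NDUFAF1 (-0.0011), NDUFS7 (0.03), SDHA (0.035) and SDHC (0.019), and with the most abundant transcript for NDUFAF1 (-0.055). With a library left out the ranges crossed 0 for 19 of all 71 members, and among the 39 these were ATP5D (-0.036 to 0.12), ATP5SL (-0.023 to 0.18), NDUFA3 (-0.60 to 0.14), NDUFAF1 (-0.030 to 0.061), NDUFB7 (-0.041 to 0.17), NDUFS6 (-0.051 to 0.14), NDUFS7 (-0.095 to 0.053), NDUFS8 (-0.13 to 0.061), NDUFV1 (-0.090 to 0.12), SDHA (-0.11 to 0.018) and SDHAF3 (-0.13 to 0.16). The causes were not tested. FPKM without counts limits all levels of short and weakly expressed members.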
